A study of Mus musculus with 16 samples.

Results

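The genes described are MYC and 56 factors that build ribosomes, chosen by name with earlier results of these data known. All 57 are among the 22675 genes present by symbol in both deposited count tables. They comprise Myc with 5 components of RNA polymerase I transcription, 6 abundant nucleolar proteins, 6 proteins of small nucleolar ribonucleoprotein particles (snoRNPs), 19 small subunit processing factors and 20 large subunit assembly factors. The RNA came from mouse spleen B cells (C57BL/6) that were B220+CD138-GL7-FAS-CD38+IgD- and bound NIP, a hapten close to the immunizing hapten NP. The mice had received NP-OVA/LPS/Alum 7 days earlier. Every library carried AID-Cre, the B1-8hi heavy chain and GFP, so these are shared by controls and Zfp318-deficient cells. HetTN and HetTP were the tdTomato- and tdTomato+ cells of the genotype Zfp318ZSDAT/+, and KOTN and KOTP were those of Zfp318ZSDAT/ZSDAT, with 4 libraries in each of the 4 groups. Each library was made from about 1000 cells with Smart-seq2, which primes on poly(A). The labels state neither an age nor a separate animal for each library, and the p-values therefore reflect only how these libraries spread. The series asks how Zfp318-sufficient and Zfp318-deficient memory B cells differ in gene expression.

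MYC is a transcription factor that B cells induce after antigen and T cell help, and genes for making ribosomes are among its best known targets. Ribosome production starts in the nucleolus, where RNA polymerase I transcribes the ribosomal RNA precursor. snoRNPs then modify the precursor, and separate sets of factors cut, fold and export the small and the large subunit. Germinal center B cells and plasmablasts grow fast and need many ribosomes, while resting memory B cells are small and divide rarely.

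MYC and its partner MAX bind the E-box CACGTG, so the promoters of the members were searched for it on 250 bases before the RefSeq start (GRCm38.p6). The motif is its own reverse complement and was counted once per position. Of the 51 members with a promoter entry, 4 held it, which is 7.84%. Among the genes tested for expression that have an entry the share was 10.3% of 8001, and among all genes with a RefSeq promoter entry it was 6.86% of 27025. The 4 members were Rrn3, with 2 copies, and Imp4, Nop2 and Utp18. None of the 7 members with an entry that were lower in homozygous cells held it. Both sets below are shown here, in capitals where CACGTG occurs, each 5′ to 3′ in the direction of its gene and cut where an annotated exon begins. Gar1 (chr3:129831397-129831646, minus strand), Mybbp1a (chr11:72441077-72441326, plus strand), Pa2g4 (chr10:128565988-128566184, minus strand) and Imp3 (chr9:56937250-56937474, plus strand) are those with an entry that differed between genotypes in both tdTomato classes. Rrn3 (chr16:13780449-13780698, plus strand) and Nop2 (chr6:125131633-125131882, plus strand) carry the motif.
Gar1: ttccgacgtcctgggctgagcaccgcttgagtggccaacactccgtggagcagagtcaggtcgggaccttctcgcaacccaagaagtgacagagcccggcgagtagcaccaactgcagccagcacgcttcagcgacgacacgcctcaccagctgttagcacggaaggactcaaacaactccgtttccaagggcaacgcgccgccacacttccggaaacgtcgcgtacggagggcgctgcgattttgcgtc
Mybbp1a: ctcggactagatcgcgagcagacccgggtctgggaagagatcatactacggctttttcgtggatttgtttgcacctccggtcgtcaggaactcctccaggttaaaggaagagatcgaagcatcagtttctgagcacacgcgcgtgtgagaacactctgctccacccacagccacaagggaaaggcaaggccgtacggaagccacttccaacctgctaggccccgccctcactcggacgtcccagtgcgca
Pa2g4: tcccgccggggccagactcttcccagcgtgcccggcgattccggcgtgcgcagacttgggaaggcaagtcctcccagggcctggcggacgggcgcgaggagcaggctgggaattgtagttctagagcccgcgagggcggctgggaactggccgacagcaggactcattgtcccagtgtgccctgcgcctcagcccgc
Imp3: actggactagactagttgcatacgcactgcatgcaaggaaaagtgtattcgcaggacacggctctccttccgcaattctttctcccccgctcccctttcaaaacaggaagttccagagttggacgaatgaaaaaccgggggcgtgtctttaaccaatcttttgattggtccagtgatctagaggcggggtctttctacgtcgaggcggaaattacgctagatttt
Rrn3: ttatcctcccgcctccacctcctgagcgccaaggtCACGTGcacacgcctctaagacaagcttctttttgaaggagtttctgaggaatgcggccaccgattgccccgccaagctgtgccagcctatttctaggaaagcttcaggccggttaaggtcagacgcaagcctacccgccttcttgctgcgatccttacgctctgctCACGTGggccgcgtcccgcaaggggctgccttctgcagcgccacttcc
Nop2: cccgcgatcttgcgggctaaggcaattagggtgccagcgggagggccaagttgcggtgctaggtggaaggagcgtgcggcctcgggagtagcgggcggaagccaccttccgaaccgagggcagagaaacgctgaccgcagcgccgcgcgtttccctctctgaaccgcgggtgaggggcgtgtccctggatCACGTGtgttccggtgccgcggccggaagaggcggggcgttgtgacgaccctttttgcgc
The first 4 stretches hold no capitals, and the Rrn3 stretch holds 2 runs of them. A match of letters is a description of the sequence and says nothing about binding.

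Depth was 7748787 to 15742445 counts per library and differed between groups. Every HetTP library (10709268 to 15742445) was deeper than every KOTN library (7748787 to 9312153), while HetTN (8099655 to 15429025) and KOTP (7991732 to 14325276) overlapped. The targeted gene followed the genotype labels. Zfp318 (chr17:46383731-46420920, GRCm38) was at 70.9, 153, 116 and 133 CPM (counts per 1000000 of the library total scaled by TMM) in HetTN, and at 110, 83.8, 94.1 and 121 CPM in HetTP. It was at 5.82, 0.467, 1.46 and 2.17 CPM in KOTN, and at 2.83, 2.92, 0.912 and 1.23 CPM in KOTP. The homozygous libraries were all below the heterozygous ones, 48.5-fold lower on average in tdTomato- cells and 52.7-fold lower in tdTomato+ cells (edgeR). The libraries of the 2 genotypes stand in separate deposited tables and differ in spread. The biological coefficient of variation fitted over all genes was 0.98 for the heterozygous table and 0.211 for the homozygous one. Among members, the median coefficient of variation was 40.9% in HetTN, 30.9% in HetTP, 10.7% in KOTN and 12.9% in KOTP. Whether both tables were counted in the same way is not stated in the sources used here, so genotype and table cannot be told apart in any comparison between genotypes.

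The B cell markers were high throughout. Summed over 9 genes they ranged from 9434 to 14010 CPM in heterozygous and from 15020 to 16850 CPM in homozygous libraries. Of these 9 genes, 8 were higher on average in homozygous cells and 1 was lower in each genotype comparison. The lowest log2 fold change was -1.61 in tdTomato- and -1.54 in tdTomato+ cells. The summed markers of T cells and of macrophages were higher in the heterozygous table, though not every gene on these lists was. The 12 T cell markers summed to 205 to 698 CPM in heterozygous and 32.7 to 52.3 CPM in homozygous libraries. Among the defining ones, Cd4 had no count in any library and Cd3e had none in the homozygous table. Trac ranged from 100.0 to 433 CPM in heterozygous libraries, against none in KOTN and at most 0.228 CPM in KOTP. Cd3d and Cd3e ranged only from 0.0 to 30.0 and from 0.0 to 10.5 CPM in HetTP, so Trac weighs heavily in the sum. Of 7 tested T cell genes, 1 was higher on average in KOTP than in HetTP and 0 in KOTN than in HetTN. The 14 macrophage and myeloid markers summed to 147 to 1374 CPM against 64.6 to 123 CPM. Of the 13 tested, 2 went the other way in each genotype comparison, with log2 fold changes of up to 1.82 in tdTomato- and 2.01 in tdTomato+ cells. Although the sort removed GL7+ and FAS+ cells, the 10 germinal center markers summed to 686 to 1304 CPM in heterozygous and 322 to 620 CPM in homozygous libraries. Bcl6, the factor that defines the germinal center program, was at 153 to 385 CPM against 48.3 to 103 CPM. Cd38, whose product was part of the gate, was at 77.9 to 155 CPM in heterozygous and 326 to 439 CPM in homozygous libraries. Fas itself was at 11.6 to 93.9 CPM in heterozygous and 65.5 to 109 CPM in homozygous libraries. The 10 plasma cell markers summed to 996 to 2366 CPM against 1293 to 1542 CPM, and Sdc1, which encodes CD138, stayed at or below 16.5 CPM. Jchain was at 181 to 636 CPM in HetTN against 17.1 to 98.5 CPM in KOTN. In HetTP it was at 73.7 to 193 CPM against 5.01 to 7.52 CPM in KOTP. Of these 10 genes, 7 were lower and 3 higher on average in homozygous cells in each tdTomato class. At an edgeR adjusted p under 0.05, 2 were lower in each class, and 1 was higher in KOTP. Genes of DNA replication and G1/S (25 genes) summed to 1999 to 3071 CPM against 775 to 1268 CPM, and G2/M genes (20 genes) to 944 to 2815 CPM against 393 to 893 CPM. The plasma cell sum had no common direction, with a mean of 1827 CPM in HetTN against 1466 in KOTN, and of 1088 CPM in HetTP against 1355 in KOTP. Each of the other sums differed between genotypes in the same direction in both tdTomato classes. Their part in the member differences below, and that of depth, was not tested.

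**Figure D1:**
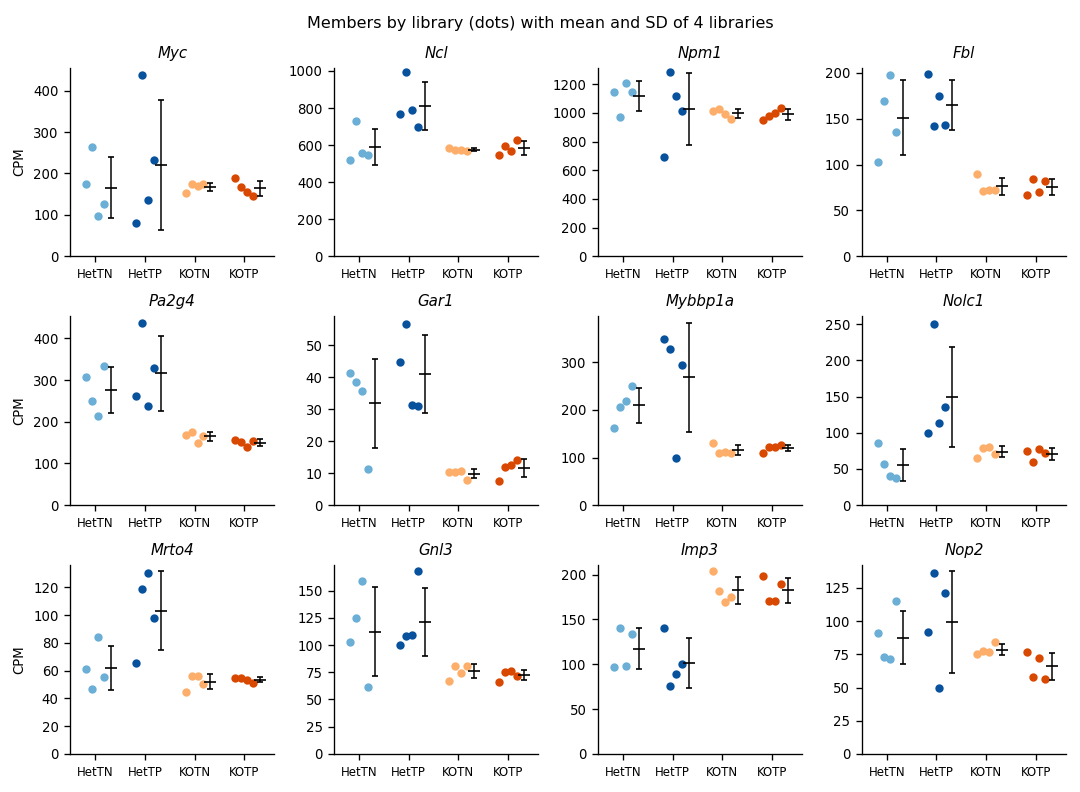
CPM of 12 members (vertical axes, linear from 0) in the 16 libraries, 1 dot per library by group, with the mean and SD of 4 libraries. Fbl, Pa2g4 and Gar1 separate the homozygous from the heterozygous libraries in both tdTomato classes, Imp3 does so in the opposite direction, and Myc in HetTP runs from 79.6 to 437 CPM.

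Ribosome biogenesis transcripts were expressed in all groups. Of the 57 members, 56 passed the filter on low counts. The exception was Wdr74, a large subunit factor, which reached at most 0.555 CPM. Per kilobase of coding sequence, Npm1 was highest in all 4 groups, at 1151 CPM per kb in HetTN, 1057 in HetTP, 1027 in KOTN and 1020 in KOTP. Npm1 encodes nucleophosmin, a chaperone of the nucleolus, and has processed pseudogenes that may share reads with it, since the handling of reads with several matches is not stated. Nhp2, a core protein of box H/ACA snoRNPs, and Emg1, a methyltransferase of the small subunit, followed. Nhp2 stood at 407, 404, 409 and 398 CPM per kb and Emg1 at 407, 401, 470 and 447 CPM per kb in the same order of groups. In the heterozygous groups these neighbours did not differ beyond their spread. Ncl, which encodes the abundant rRNA-binding protein nucleolin, was next in HetTN and HetTP at 277 and 382 CPM per kb. In KOTN and KOTP the small subunit factor Imp3 was ahead of it, at 330 and 331 CPM per kb. Myc stood at 122 CPM per kb in HetTN, 163 in HetTP, 123 in KOTN and 121 in KOTP.

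Summed over the members, the level was 6035 ± 93.6 CPM in HetTN, 6881 ± 1229 in HetTP, 5593 ± 39.6 in KOTN and 5512 ± 191 in KOTP (SD, n = 4 each). With TMM scaling the ranges of the heterozygous and homozygous libraries lay narrowly apart, with 5930 CPM as the lowest heterozygous and 5773 CPM as the highest homozygous value. The sums were not made under other scalings, so this gap may depend on the scaling. Upper quartile scaling moved the all-gene median log2 fold change of KOTN against HetTN from 0.00 to 0.09. Abundant members such as Npm1 weigh most in the sum, which therefore does not describe every member. One library stood apart. HetTP library 2 summed to 8633 CPM, against 5930 to 6837 CPM in the other 7 heterozygous libraries, and was the highest of those 8 for 21 of 56 members. Several values that it moves are given below with and without it. In bulk samples, fewer cells with a transcript and less of it per cell cannot be told apart.

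**Figure D2:**
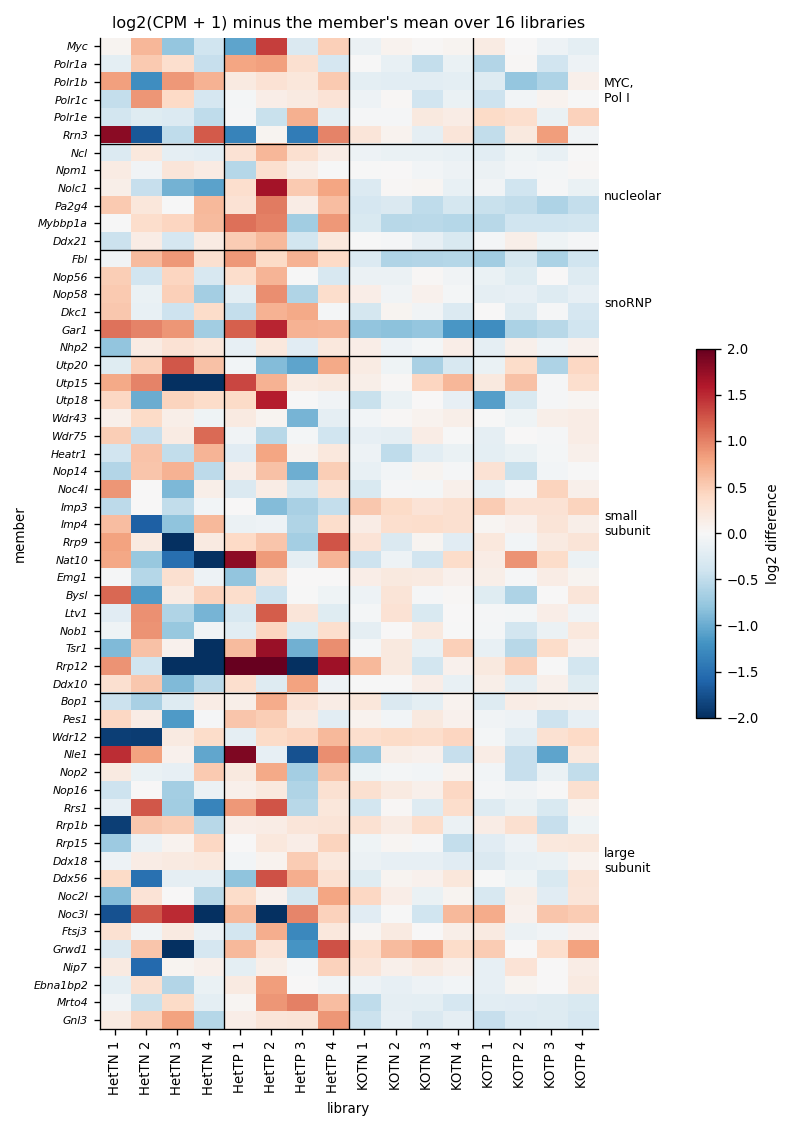
log2(CPM + 1) of the 56 tested members (rows, by role) in the 16 libraries (columns), less each member's own mean over the libraries, with colours saturating at 2 in either direction. HetTP library 2 is the column with the highest values for 21 members among heterozygous libraries, and the homozygous columns are even.

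The genotype comparison asks whether these transcripts differ in Zfp318-deficient cells. In tdTomato- cells 4 members were lower and 1 was higher in homozygous cells. The lower ones were Fbl, Gar1, Pa2g4 and Mybbp1a, and the higher one was Imp3. In tdTomato+ cells the same 5 members differed in the same directions, joined on the lower side by Mrto4, Nolc1, Ncl and Gnl3. Calls are at an adjusted p under 0.05 in edgeR's quasi-likelihood test with Benjamini-Hochberg adjustment over all genes tested. This fit shares a common spread per gene over both genotypes, whose biological coefficients of variation were 0.98 and 0.211. Its standard errors and p-values may therefore fit neither genotype well. The 5 called members are 8.93% of 56 in KOTN against HetTN, where 10.5% of all 10687 genes were called, 5.61% higher and 4.88% lower. In KOTP against HetTP the 9 called members are 16.1% of 56, with 10.3% of all genes called, 5.06% higher and 5.22% lower. The share in tdTomato- cells is close to the background. On the lower side alone it was 7.14% and 14.3% of members. The members called in both comparisons were 100% of those called in tdTomato- cells and 55.6% of those called in tdTomato+ cells. Among all genes, the 538 called in both were 48% and 49%. Of all calls, 53.5% were higher in KOTN against HetTN and 49.2% in KOTP against HetTP. With upper quartile scaling these shares were 63.5% and 59.6%, and with library totals 43.1% and 27.7%. Without HetTN library 3 or any single KOTN library, 3 members were called in the first comparison. Without HetTP library 2 or KOTP library 2, 6 were called in the second. The first comparison called 623 to 747 genes without a KOTN library, and the second 730 without KOTP library 4.

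The median log2 fold change of the members was -0.10 in tdTomato- cells, with 34 of 56 below 0, and 0.00 over all genes. In tdTomato+ cells it was -0.32, with 44 of 56 below 0, and -0.03 over all genes. Without HetTP library 2 the second value was -0.23, with 42 below 0. Scaling by library totals alone moved the median of all genes in KOTP against HetTP from -0.03 to -0.25, and the members' median was then -0.55. With upper quartile scaling the members' medians were -0.01 and -0.22.

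**Figure D3:**
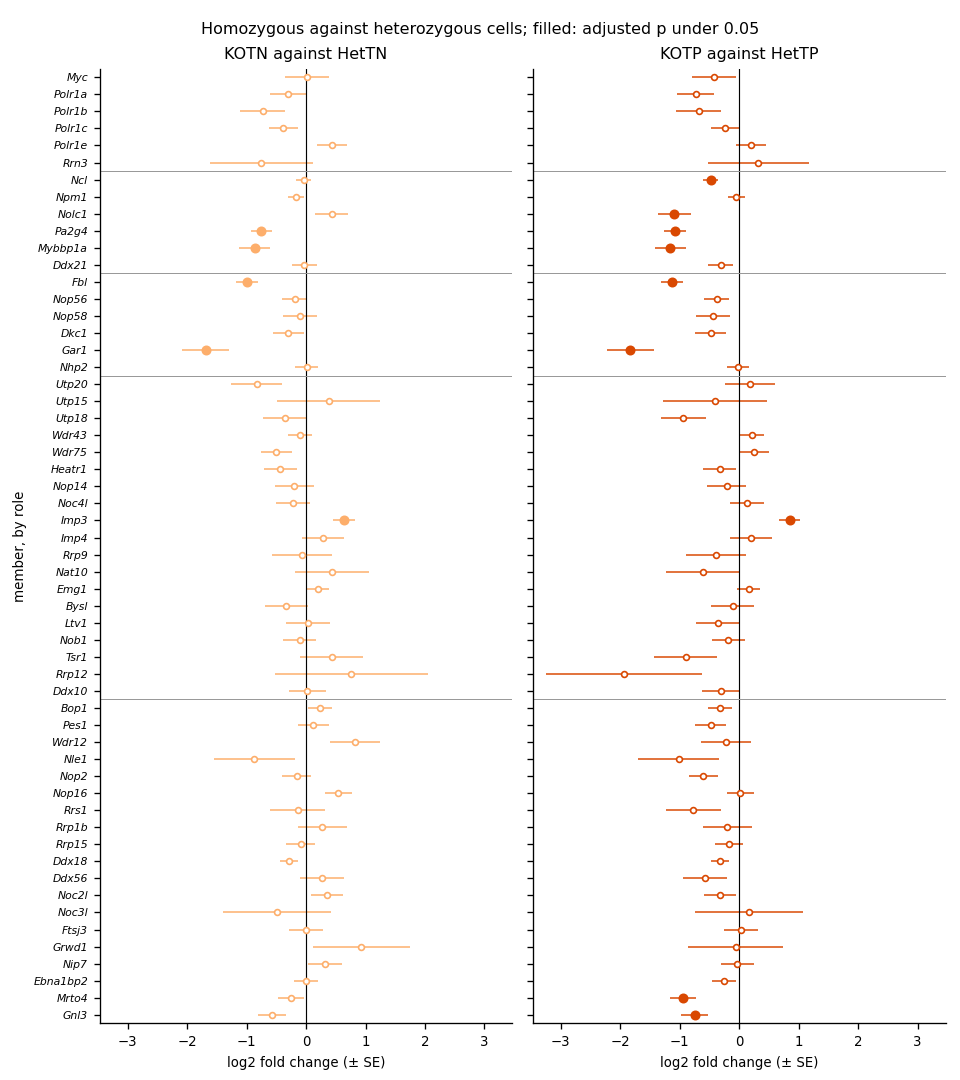
log2 fold change (horizontal axis, ± SE) of homozygous against heterozygous cells for the 56 tested members, by role from top to bottom, with tdTomato- cells on the left and tdTomato+ cells on the right. Filled dots passed an adjusted p of 0.05, which were 5 members on the left and 9 on the right.

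Among the transcription factors and RNA polymerase I components, no member was called in either genotype comparison. Myc (chr15:61985391-61990374) was at 174, 265, 97.4 and 126 CPM in HetTN and at 154, 175, 169 and 174 CPM in KOTN. The KOTN values lay inside the HetTN range. The log2 fold change was 0.02 (SE 0.37, edgeR adjusted p = 0.986). In tdTomato+ cells Myc was at 79.6, 437, 137 and 232 CPM in HetTP and at 188, 168, 156 and 146 CPM in KOTP, again within the heterozygous range. The log2 fold change was -0.43 (SE 0.37, edgeR adjusted p = 0.604), and 0.13 without HetTP library 2. With that standard error only large differences in Myc could be seen. Polr1a and Polr1b, the catalytic subunits, had log2 fold changes of -0.30 and -0.73 in tdTomato- cells and -0.73 and -0.68 in tdTomato+ cells. Polr1b was lower in all KOTP than in all HetTP libraries, without passing the test. Rrn3, the initiation factor that brings the polymerase to the promoter, was at 1.21 to 23.9 CPM and gave -0.75 and 0.32.

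Of the abundant nucleolar proteins, 2 of 6 were lower in tdTomato- and 4 of 6 in tdTomato+ homozygous cells. Pa2g4 (chr10:128557766-128565987) encodes EBP1, a growth regulator that binds ribosomes and pre-ribosomes. It was at 307, 250, 213 and 335 CPM in HetTN and at 169, 175, 149 and 166 CPM in KOTN. In HetTP it was at 261, 438, 237 and 328 CPM, and in KOTP at 157, 151, 139 and 153 CPM. All homozygous libraries lay below all heterozygous ones. The log2 fold changes were -0.75 (SE 0.18, edgeR adjusted p = 0.0113) and -1.08 (SE 0.18, adjusted p = 0.000611). An annotated miRNA gene covers 7.61% of its coding sequence, so some of its reads are uncertain.

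Mybbp1a (chr11:72441355-72451768), a nucleolar protein that takes part in rRNA processing and stress signalling, was at 161, 207, 219 and 251 CPM in HetTN and at 131, 110, 111 and 109 CPM in KOTN. These groups did not overlap. HetTP stood at 349, 328, 100.0 and 295 CPM and KOTP at 110, 122, 122 and 126 CPM, so HetTP library 3 fell below KOTP while the others were well above. The log2 fold changes were -0.86 (SE 0.26, edgeR adjusted p = 0.0396) and -1.16 (SE 0.26, adjusted p = 0.00653). The first is not stable. It missed the threshold without HetTN library 2, 3 or 4 (edgeR adjusted p = 0.0582, 0.0652 and 0.0849) and without any single KOTN library (0.0624 to 0.104).

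Ncl (chr1:86344719-86359400) was at 520, 732, 557 and 545 CPM in HetTN and at 586, 574, 572 and 567 CPM in KOTN. The groups overlapped, with a log2 fold change of -0.04 (SE 0.13, edgeR adjusted p = 0.918). In HetTP it was at 766, 993, 787 and 698 CPM and in KOTP at 545, 593, 568 and 629 CPM, without overlap. There the log2 fold change was -0.48 (SE 0.13, edgeR adjusted p = 0.0214). Without HetTP library 2 it was -0.37 (adjusted p = 0.0652), and the call was also lost without KOTP library 1, 2 or 3 (0.0735, 0.0531 and 0.0662).

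Nolc1 (chr19:46075863-46085530) encodes a chaperone of snoRNPs. It was at 85.3, 56.8, 40.3 and 36.9 CPM in HetTN and at 64.8, 79.6, 80.5 and 70.7 CPM in KOTN, a log2 fold change of 0.43 that was not called. In HetTP it was at 99.4, 250, 113 and 136 CPM and in KOTP at 74.8, 59.2, 76.9 and 71.5 CPM. The tdTomato+ groups did not overlap, and the log2 fold change was -1.09 (SE 0.28, edgeR adjusted p = 0.0172). Without HetTP library 2 it was -0.73 (adjusted p = 0.0804), and without KOTP library 2 it was -1.01 (0.0621).

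Npm1 (chr11:33152287-33163206) was at 1144, 972, 1212 and 1149 CPM in HetTN and at 1016, 1030, 990.0 and 956 CPM in KOTN. In HetTP it was at 693, 1287, 1117 and 1015 CPM, and in KOTP at 949, 982, 997 and 1038 CPM. The groups overlapped in both comparisons. The log2 fold changes were -0.17 (SE 0.14, edgeR adjusted p = 0.554) and -0.05 (SE 0.14, adjusted p = 0.912). Ddx21, an RNA helicase of the nucleolus, gave -0.03 and -0.31 and was not called.

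Among snoRNP proteins, 2 of 6 were lower in each comparison, 1 from each class of particle. Fbl (chr7:28169710-28179269) encodes fibrillarin, the methyltransferase of box C/D snoRNPs. It was at 103, 169, 198 and 135 CPM in HetTN and at 89.3, 70.8, 71.8 and 72.6 CPM in KOTN. HetTP stood at 199, 142, 175 and 143 CPM and KOTP at 66.6, 84.1, 69.6 and 81.9 CPM. Neither pair of groups overlapped. Mean levels were 151 ± 41.1 and 76.1 ± 8.82 CPM in tdTomato- cells, and 165 ± 27.4 and 75.6 ± 8.76 CPM in tdTomato+ cells (SD, n = 4). As log2 fold changes these were -0.99 (SE 0.19, edgeR adjusted p = 0.00278) and -1.13 (SE 0.19, adjusted p = 0.000804).

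Gar1 (chr3:129824912-129831396), a core protein of the box H/ACA snoRNPs that convert uridine to pseudouridine, was at 41.4, 38.6, 35.7 and 11.3 CPM in HetTN and at 10.5, 10.3, 10.7 and 7.94 CPM in KOTN. HetTN library 4 was close to the KOTN values, yet the groups did not overlap. In HetTP it was at 44.7, 56.5, 31.4 and 30.9 CPM and in KOTP at 7.45, 11.9, 12.5 and 14.1 CPM, well apart. With log2 fold changes of -1.69 (SE 0.39, edgeR adjusted p = 0.00989) and -1.83 (SE 0.39, adjusted p = 0.00465), it had the largest called change of any member. The partners of these proteins were not called. Nop56 and Nop58, which bind box C/D RNAs beside fibrillarin, gave -0.19 and -0.10 in tdTomato- and -0.38 and -0.44 in tdTomato+ cells. Dkc1, the pseudouridine synthase that works with GAR1, gave -0.30 and -0.48, and Nhp2 gave 0.01 and -0.02. With all 16 libraries in the fit, Fbl, Gar1 and Pa2g4 were called in both genotype comparisons whichever single library of the groups compared was left out. With only the 8 libraries compared in the fit, no member was called in KOTN against HetTN without KOTN library 2, 3 or 4.

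Of the 19 small subunit processing factors, 1 was higher and none was lower in each comparison. Imp3 (chr9:56937475-56938398) encodes a protein of the U3 snoRNP, which guides the first cuts of the precursor. It was at 96.6, 140.0, 98.4 and 134 CPM in HetTN and at 204, 182, 169 and 175 CPM in KOTN. HetTP stood at 141, 75.9, 88.7 and 100.0 CPM and KOTP at 199, 171, 171 and 190.0 CPM. All homozygous libraries lay above all heterozygous ones. The log2 fold changes were 0.64 (SE 0.18, edgeR adjusted p = 0.0324) and 0.85 (SE 0.18, adjusted p = 0.0049). The first call was lost without HetTN library 1 or 3 (edgeR adjusted p = 0.0722 and 0.0807), without any single KOTN library (0.0597 to 0.0911) and with scaling by library totals (0.0568). Imp4, its partner in the same complex, gave 0.29 and 0.20. The log2 fold changes of all 19 ran from -0.83 to 0.76 in tdTomato- and from -1.94 to 0.85 in tdTomato+ cells. The lowest was that of Rrp12, which is rare in these cells, at 42.9 CPM or less, and had no count in 1 HetTN and 1 HetTP library. Tsr1 gave 0.43 and -0.90, and 21.1% of its coding sequence overlaps exons of Srr on the opposite strand, so its reads are uncertain.

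Of the 19 tested large subunit factors, none was called in tdTomato- cells and 2 were lower in tdTomato+ cells. Mrto4 (chr4:139347435-139352576) acts on the precursor of the ribosomal stalk. It was at 65.5, 119, 130.0 and 98.1 CPM in HetTP and at 55.0, 54.4, 53.3 and 51.3 CPM in KOTP, without overlap. The log2 fold change was -0.95 (SE 0.22, edgeR adjusted p = 0.00895), and in the fit of 16 libraries this call held whichever of these 8 was left out. In tdTomato- cells it was -0.26. Gnl3 (chr14:31012433-31019152) encodes nucleostemin, a GTPase of proliferating cells. It was at 100.0, 108, 109 and 168 CPM in HetTP and at 66.2, 75.5, 76.3 and 71.8 CPM in KOTP, also without overlap. Its log2 fold change was -0.75 (SE 0.23, edgeR adjusted p = 0.0495), just under the threshold. The Gnl3 call was kept only without HetTP library 1. It was lost without HetTP library 2, 3 or 4 (edgeR adjusted p = 0.0539, 0.0568 and 0.161) and without any single KOTP library (0.0978 to 0.131). The 3 proteins of the PeBoW complex, Pes1, Bop1 and Wdr12, gave 0.12, 0.23 and 0.82 in tdTomato- and -0.48, -0.32 and -0.22 in tdTomato+ cells, and none was called.

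By library ranges, 5 members were lower and 3 higher in every KOTN than in every HetTN library, against 7.12% and 12.6% of all genes. In KOTP against HetTP, 8 members were lower and 1 was higher throughout, against 8.69% and 11.5% of all genes. Besides called members these were Ddx18 among the lower and Polr1e and Nop16 among the higher in tdTomato- cells, and Polr1b among the lower in tdTomato+ cells, named here after their values were seen.

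Within a genotype, the tdTomato comparison asks whether cells that carry the tdTomato signal differ in these transcripts from those that do not. The Zfp318 transcript itself overlapped between the tdTomato classes, at a log2 fold change of -0.21 for HetTP against HetTN (SE 0.27, edgeR adjusted p = 1) and -0.31 for KOTP against KOTN (SE 0.67, adjusted p = 0.929). The HetTP libraries are the same as in the comparison with KOTP. In heterozygous cells no member was called, and none of the 10651 genes with a count there was (0.0%). At an unadjusted p under 0.05 there were 4 members (7.14%) and 661 genes (6.21%). Nolc1 had the smallest p and was the 1 member whose HetTP libraries were all above HetTN, from 99.4 to 250 CPM against 36.9 to 85.3 CPM. All-higher genes were 2.45% of those tested, and all-lower genes 2.06%. Its log2 fold change was 1.45 (SE 0.36, edgeR adjusted p = 0.68), and 1.08 without HetTP library 2 (adjusted p = 0.933). DESeq2 called it (adjusted p = 0.0497), as did edgeR with the spread estimated over all 16 libraries (adjusted p = 0.0217), while limma voom called no member.

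Ncl and Mrto4 followed by p, at log2 fold changes of 0.46 (SE 0.18) and 0.74 (SE 0.30), both with an edgeR adjusted p of 0.79. Mrto4 was at 61.0, 46.7, 84.1 and 55.6 CPM in HetTN, overlapping HetTP through its library 1. Myc, with HetTP values from 79.6 to 437 CPM, gave 0.42 (SE 0.45), and -0.15 without HetTP library 2. Npm1 and Fbl gave -0.12 (SE 0.19) and 0.13 (SE 0.24). The median over members was 0.26, with 16 of 56 below 0, and 0.03 over all genes. Without HetTP library 2 it was 0.16, with 24 below 0, and 0.01 over all genes. With library totals it was 0.38, and 0.15 over all genes. Of the 19 tested large subunit factors, 17 were above 0, against 10 of 19 small subunit factors and 5527 of 10651 genes. These counts by role were not made without HetTP library 2. The median SE was 0.36.

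**Figure D4:**
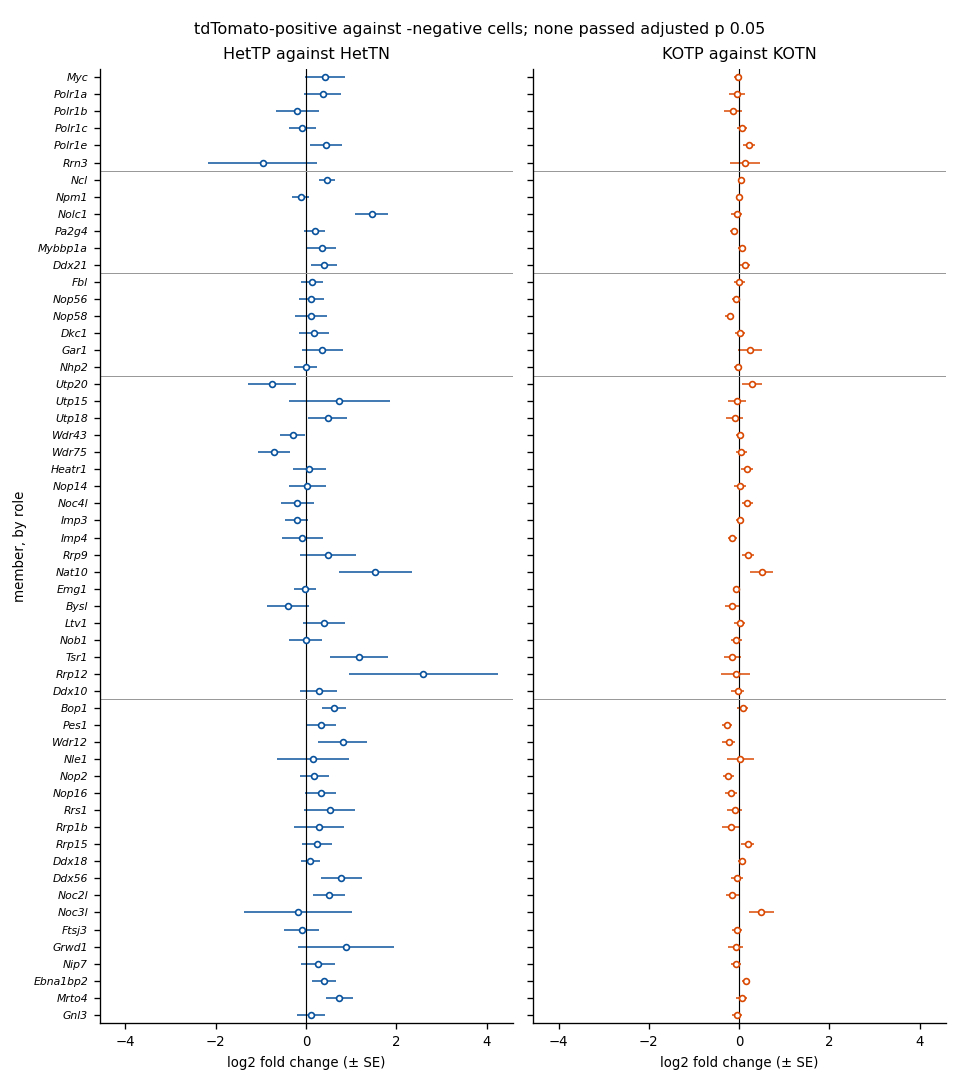
log2 fold change (horizontal axis, ± SE) of tdTomato+ against tdTomato- cells for the 56 tested members, by role from top to bottom, in heterozygous (left) and homozygous cells (right). No member passed an adjusted p of 0.05 in either panel, and the homozygous values lie between -0.26 and 0.50.

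In homozygous cells the members were nearly level between tdTomato classes. None was called, which is close to the background, as 2.19% of 10676 genes were called, 0.834% higher and 1.36% lower. Log2 fold changes ran from -0.26 to 0.50 with a median of -0.02, against 0.00 over all genes, and the median SE was 0.13. DESeq2 and limma voom called none either, and 3 members (5.36%) had an unadjusted p under 0.05, against 11.9% of genes. Myc gave -0.02 (SE 0.09), Ncl 0.04 (SE 0.07), Npm1 0.00 (SE 0.06) and Fbl 0.00 (SE 0.12).

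Fewer genes were called without KOTN library 2 (126) or 4 (145), and 390 without KOTN library 1, none of them members. The 3 smallest p belonged to large subunit and snoRNP members. Pes1 was at 78.1, 71.7, 85.3 and 79.3 CPM in KOTN and at 70.4, 69.3, 55.3 and 65.9 CPM in KOTP. A protein-coding gene on the opposite strand overlaps 7.82% of the Pes1 coding sequence, so some of its reads are uncertain. Nop58 was at 98.2, 85.3, 94.8 and 87.6 CPM in KOTN and at 79.0, 79.6, 74.9 and 79.5 CPM in KOTP. For both, all KOTP libraries lay below all KOTN libraries, as for 4.24% of genes, with 3.02% all higher. Nop2, an rRNA methyltransferase of the large subunit, was at 75.4, 77.6, 77.0 and 84.4 CPM in KOTN and at 77.0, 57.6, 72.5 and 56.4 CPM in KOTP, which overlapped. The log2 fold changes were -0.26 (Pes1, edgeR adjusted p = 0.343), -0.21 (Nop58, 0.403) and -0.24 (Nop2, 0.418).

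In the same 8 libraries, where 1.36% of all genes were lower, some proliferation genes were called. Of 25 DNA replication and G1/S genes 7 were lower in KOTP, with a median of -0.62, among them Mcm6 (-0.66), Lig1 (-0.84) and Mcm5 (-0.74). Of 19 tested G2/M genes 5 were lower, with a median of -0.70, including Mki67 (-0.64). Of 10 germinal center markers 4 were lower, with a median of -0.62, including Mef2b (-1.16) and Neil1 (-0.85). No test compared these lists with the members.

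The difference between genotypes in the tdTomato effect was tested directly as an interaction, the effect in homozygous less that in heterozygous cells. It was called for no member, and for 0.122% of all genes, 0.0749% higher and 0.0468% lower. Nolc1 had the smallest p, at -1.51 (SE 0.40, edgeR adjusted p = 0.159). DESeq2 called it (adjusted p = 0.0282), and so did edgeR without HetTN library 1, at -1.81 (adjusted p = 0.0355). Ncl gave -0.44 (adjusted p = 0.41), Mrto4 -0.69 (0.495), Myc -0.45 (0.919), Fbl -0.13 (0.975) and Npm1 0.11 (0.966). The members' median was -0.27, with 43 of 56 below 0, and -0.05 over all genes. Without HetTP library 2 it was -0.11, with 35 below 0.

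The other genes of the pathway were taken from lists, chosen with earlier results of these data known. None of the 15 genes listed as other RNA polymerase I subunits and factors was called in any comparison. Tcof1 is not on that list but on the next. Among 10 other snoRNP proteins and assembly factors, none was called in tdTomato- cells, while in KOTP against HetTP Rpap3, an assembly cofactor, was lower (-1.56), Tcof1 was lower (-0.86) and Nop10, the fourth core H/ACA protein, was higher (0.53). Of 38 other small subunit factors, Lyar (-1.17) and Nop9 (-0.72) were lower and Riok3 (0.63), an atypical kinase, was higher in KOTN, and none was called in KOTP. Of 41 other large subunit factors 3 were lower in each genotype comparison, namely Tex10 (-0.89), Pelp1 (-1.19) and Ddx54 (-0.43) in KOTN, and Ddx54 (-0.80), Ppan (-0.81) and Pelp1 (-1.34) in KOTP. Exosc6, a subunit of the RNA exosome that trims rRNA ends, was the 1 of 14 exosome genes lower in each (-1.39 and -1.43), and Dis3, its nuclease, was lower in KOTP against KOTN (-0.76). Over all genes, 10.5% were called in KOTN against HetTN, 10.3% in KOTP against HetTP and 2.19% in KOTP against KOTN. In the 2 genotype comparisons the called shares were 0% and 30% of other snoRNP genes, and 7.89% and 0% of other small subunit factors. They were 7.32% of other large subunit factors and 7.14% of exosome genes in each. These shares were not tested against the background.

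Among 18 tested partners and regulators of MYC, Mlxip (-1.46) and the ATPase Ruvbl2 (-1.31) were lower and Bin1 (0.71), a MYC-binding adaptor, was higher in KOTN against HetTN. In KOTP against HetTP Mlxip alone was called (-1.38). Of 35 tested metabolic and growth genes that MYC is known to bind, 8 were lower in KOTN and 9 in KOTP and none was higher, with medians of -0.55 and -0.63. The called genes included the translation factor Eif3b (-1.03 and -1.39), Cdk4 (-0.59 in KOTN) and Eif4a1 (-0.79 in KOTP). Over all genes, 4.88% were lower and 5.61% higher in KOTN, and 5.22% lower and 5.06% higher in KOTP. No test compared these lists with the background. DNA replication and G1/S genes were lower for 12 of 25 in KOTN and 20 of 25 in KOTP, with medians of -1.13 and -1.67. Mcm5, a subunit of the replicative helicase, gave -1.56 and -2.21. G2/M genes were lower for 11 and 14 of 19.

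**Figure D5:**
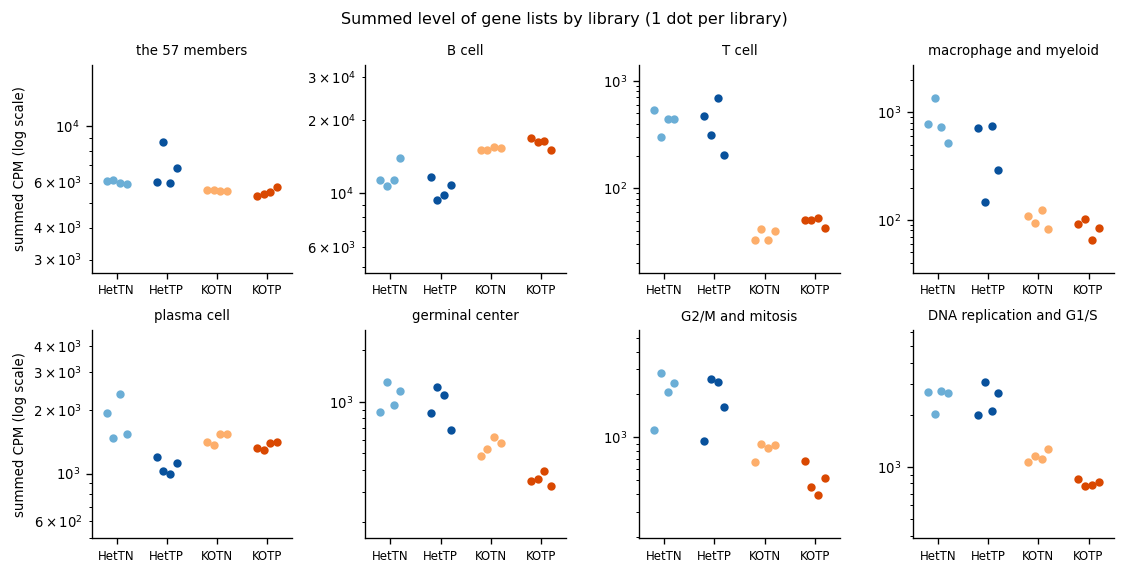
Summed CPM of gene lists (vertical axes, log scale) in the 16 libraries, 1 dot per library by group. The DNA replication and G1/S list lies at 1999 to 3071 CPM in heterozygous and 775 to 1268 CPM in homozygous libraries, while the members' sum spans 5330 to 8633 CPM over all 16.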

How the data were processed

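Per the submitters' processing notes, Trim Galore, STAR 2.2.0 and featureCounts were used, with mm10 as the build. The strand setting and the handling of reads with several matches are not given in the sources used here. The file headers name the deposited values as CDS counts, and the authors deposited these raw counts in 1 table per genotype. The RPM, average, log2 and p-value columns of those tables were not used.

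The tables were joined on gene symbol, which kept 22675 of 22680 entries each. Positions and coding lengths came from GENCODE M21, to which 88.7% of symbols matched. Counts were scaled with TMM and filtered with filterByExpr, leaving 10687 genes. edgeR 4.0.16 (R 4.3.3) fitted robust quasi-likelihood models. The tdTomato comparisons used the 8 libraries of 1 table with 6 residual degrees of freedom, and genes without a count in them were left out. The genotype comparisons and the interaction used all 16 libraries with 12. They share a common spread per gene over both deposited tables, which differ in spread, so their standard errors and p-values may fit neither table well. Adjusted p-values are Benjamini-Hochberg over all genes tested. CPM are counts per 1000000 of the TMM-scaled library total. Reads carry no molecular identifiers, so counts are not independent molecules. Replicates differed by far more than sampling noise, so no library was taken for a copy of another. The fits were also run on simulated counts, where in every comparison many of the changes put in were missed and some calls were false. Alternatives were other scalings and filters, DESeq2 1.42.0, limma 3.58.1 voom with sample weights, a replicate block, other sets of libraries in the fit, and leaving out each library. The block shared by both genotypes and the 8-library leave-outs were added after the data were seen.

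The members and gene lists were chosen with earlier results of these data known. Named with values in every library are Zfp318, then in each comparison Myc, Ncl, Npm1, Fbl and up to 12 called members, or the 3 with the smallest p where fewer than 3 were called, and, by fold change alone, up to 3 called genes per list. Npm1, Fbl and Myc had no promoter entry among those searched, nor had Rrp12, Bop1 and Rrs1.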

Additional observations from a re-analysis of the deposited data

Results flagged for a closer look

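The libraries of each group were searched for a value far from the other 3 in 14 named members, 56 groups of 4 in all, of which chance alone sets about 1 in 20 apart. Such a library was found for 5 members. Fbl in KOTN library 1 was at 89.3 CPM, against 70.8 to 72.6 CPM in the other 3. Mybbp1a in the same library was at 131 CPM, against 109 to 111 CPM. Gar1 in KOTN library 4 was at 7.94 CPM, against 10.3 to 10.7 CPM. Nop58 in KOTP library 3 was at 74.9 CPM, against 79.0 to 79.6 CPM. Gnl3 in HetTP library 4 was at 168 CPM, against 100.0 to 109 CPM, and without this library its genotype difference in tdTomato+ cells was -0.55 (edgeR adjusted p = 0.161).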

How the results depend on the processing

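The counts of members called in the genotype comparisons stayed within 1.5 times under each alternative scaling, filter and tool, at 4 to 5 in KOTN against HetTN and 7 to 12 in KOTP against HetTP, and 0 members were called in KOTP against KOTN under all of them. In tdTomato- cells Imp3 missed the threshold with library totals (edgeR adjusted p = 0.0568) and limma voom (0.0661), and Mybbp1a with upper quartile scaling (0.059). In tdTomato+ cells Ncl missed it with upper quartile scaling (0.0685), and Gnl3 with that scaling (0.0844) and without a filter (0.0614). The cause was not tested. Standard errors bound what could be called. Their median over members was 0.36 in HetTP against HetTN, 0.13 in KOTP against KOTN and 0.28 in each genotype comparison.

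Over all genes, HetTP against HetTN called 1 gene without a filter, 52 with DESeq2 and 114 with all 16 libraries in the fit, and 1 member with each of the last 2. KOTP against KOTN called 355 genes with DESeq2 and 2 with all 16 libraries. The interaction called 6 genes with library totals, 194 with DESeq2 (1 of them a member) and 7 with limma voom.

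Same-numbered libraries did not deviate together, with correlations of -0.01 to 0.1 in heterozygous and 0 to 0.08 in homozygous cells, and the best partner was the same number for 2 of 4 heterozygous and 1 of 4 homozygous pairs. The numbers were therefore not taken as pairs. With a replicate block nested in genotype the interaction called 2 genes, and with a block shared by both genotypes Mybbp1a in KOTN (adjusted p = 0.055) and Gnl3 in KOTP (0.0701) missed the threshold.

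Small differences changed sign. Npm1 in KOTP against KOTN was -0.03 with library totals, -0.01 with all 16 libraries, and 0.00 with the 5 CPM filter and with limma voom. Fbl there was -0.03 with library totals and -0.01 with all 16 libraries. Myc in KOTN against HetTN was -0.02 with RLE scaling, -0.08 with library totals, -0.01 with the 5 CPM filter and -0.02 with DESeq2. Ncl there was 0.04 with upper quartile scaling. Npm1 in KOTP against HetTP was 0.04 with upper quartile scaling and 0.02 with limma voom, and in the interaction -0.02 with library totals.

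Leaving out each library in turn gave these ranges. In HetTP against HetTN, 0 to 1 genes were called, and Myc ran from -0.15 to 0.74, Npm1 from -0.25 to 0.02 and Fbl from -0.01 to 0.28. In KOTP against KOTN, 126 to 390 genes were called, with Myc at -0.09 to 0.04, Ncl at 0.00 to 0.07, Npm1 at -0.02 to 0.02 and Fbl at -0.05 to 0.09. In KOTN against HetTN, 623 to 1276 genes and 3 to 5 members were called, with Myc at -0.18 to 0.33 and Ncl at -0.09 to 0.08. In KOTP against HetTP, 730 to 1121 genes and 6 to 9 members were called, with Myc at -0.70 to 0.13 and Npm1 at -0.20 to 0.07. In the interaction, 1 to 41 genes and 0 to 1 members were called, with Myc at -0.76 to 0.12, Npm1 at -0.03 to 0.24 and Fbl at -0.29 to 0.01. Each KOTN or KOTP library left out brought the interaction to 1 gene, and each HetTN library to 28 or more.

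With only the 8 libraries compared in the fit, members called in KOTN against HetTN were 3 without HetTN library 1 or 3, 2 without KOTN library 1 (323 genes) and 0 without KOTN library 2, 3 or 4 (216, 231 and 245 genes). In KOTP against HetTP they were 3 without KOTP library 1 or 4 (711 and 618 genes) and 4 without KOTP library 2 or 3 (644 and 620 genes).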
